A study of Mus musculus with 8 samples.

Results

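The 39 genes described here are interferon-induced genes, a set whose transcription rises when a cell senses interferon. They were taken by name from a written list, which was drawn up with earlier results of these data known, out of 31053 gene rows in the count tables. No measured value enters the rule itself, and each of the 39 names matched exactly 1 row. By role the list holds 5 interferon transcription factors, 6 guanylate-binding proteins, 5 immunity-related GTPases, 13 antiviral effectors, 5 nucleic acid sensors and related genes, and 5 genes of the immunoproteasome and peptide loading. Their counts were read in colonic lamina propria cells enriched for CD4 T cells and profiled by droplet-based 3' single-cell RNA sequencing. Wildtype C57BL/6 mice and mutant mice on that strain, named RORgtS182A in the design text and S203AKI in the sample titles, received no treatment or dextran sulfate sodium (DSS). DSS is a detergent-like polymer that injures the colonic epithelium and is given to model colitis. It was supplied at 2% in drinking water for 7 days and followed by plain water for 3 days, and all mice were 10 to 12 weeks old and were sampled at day 10. Each of the 4 groups (wildtype untreated, mutant untreated, wildtype DSS, mutant DSS) held 2 libraries, which the labels call independent biological replicates. The mutation changes RORγt, the transcription factor that defines T helper 17 (Th17) cells, and the labels give neither the cells that carry it nor a targeting promoter.

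Type I interferons bind the receptor chains encoded by Ifnar1 and Ifnar2, and JAK kinases then activate transcription factors, STAT2 among them, that join IRF9 and bind the interferon-stimulated response element (ISRE). Interferon gamma, a product of T helper 1 (Th1) cells and natural killer cells, acts through Ifngr1 and Ifngr2 and leads to binding at the gamma-activated site (GAS). Guanylate-binding proteins and immunity-related GTPases attack vacuoles that hold microbes, antiviral effectors such as the IFIT proteins block viral RNA or its translation, and the immunoproteasome cuts peptides for major histocompatibility complex class I. In the gut, microbial products keep part of this program on without infection.

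Promoter sequence was available for 31 of the 39 members in RefSeq's annotation of GRCm38.p6, as windows from 250 bases before to 50 bases after a transcription start. Windows were searched on both strands for the ISRE letters (GAAA, then any 2 bases, then GAAA again) and the GAS letters TTCNNNGAA, which may overlap each other. The ISRE letters were in 3.44% of all 32851 windows, in at least 1 window of 3.99% of 27025 genes and in at least 1 window of 15 of the 31 matched members (48.4%). The GAS letters were in 8.3% of all windows, in 9.55% of genes and in 13 of the 31 members (41.9%). By role, 4 of 4 matched guanylate-binding protein genes, 3 of 4 immunity-related GTPase genes and 9 of 10 antiviral effector genes held either motif, against 1 of 5 immunoproteasome and peptide loading genes. A match describes letters in the window and is not a shown binding site. The 7 windows printed here belong to members that the results turn on. Each is written 5′ to 3′ on the gene's strand, with every base of a matched motif in capitals.

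Isg15, at chr4:156200769-156201068 on the minus strand, held 3 overlapping ISRE matches of which the first began at position -78 from the start, and Ifit3, at chr19:34583279-34583578 on the plus strand, held 2 ISRE matches. Gbp7, at chr3:142530086-142530385 on the plus strand, held 1 ISRE match and 2 GAS matches. The GTPase genes Igtp, at chr11:58199306-58199605 on the plus strand, and Irgm2, at chr11:58214727-58215026 on the plus strand, each held 1 ISRE and 1 GAS match. Psmb8, at chr17:34197945-34198244 on the plus strand, held 1 GAS match at position -97 and Irf7, at chr7:141266375-141266674 on the minus strand, held neither set of letters in this window.
Isg15: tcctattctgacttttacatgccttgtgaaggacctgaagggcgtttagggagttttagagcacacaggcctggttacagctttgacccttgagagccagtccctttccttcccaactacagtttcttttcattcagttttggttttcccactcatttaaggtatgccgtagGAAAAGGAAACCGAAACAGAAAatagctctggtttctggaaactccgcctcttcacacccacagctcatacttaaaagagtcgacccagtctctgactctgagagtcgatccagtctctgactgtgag
Ifit3: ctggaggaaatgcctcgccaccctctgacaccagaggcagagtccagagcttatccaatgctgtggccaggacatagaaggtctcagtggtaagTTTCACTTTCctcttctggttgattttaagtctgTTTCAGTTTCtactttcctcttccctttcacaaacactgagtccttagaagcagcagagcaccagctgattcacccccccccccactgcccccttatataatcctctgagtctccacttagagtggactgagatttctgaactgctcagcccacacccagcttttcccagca
Gbp7: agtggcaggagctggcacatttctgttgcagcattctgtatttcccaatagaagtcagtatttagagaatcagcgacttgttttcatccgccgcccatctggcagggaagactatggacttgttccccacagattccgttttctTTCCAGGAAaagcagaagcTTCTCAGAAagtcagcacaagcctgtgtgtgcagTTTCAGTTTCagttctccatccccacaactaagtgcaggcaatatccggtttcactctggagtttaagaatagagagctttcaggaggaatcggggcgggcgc
Igtp: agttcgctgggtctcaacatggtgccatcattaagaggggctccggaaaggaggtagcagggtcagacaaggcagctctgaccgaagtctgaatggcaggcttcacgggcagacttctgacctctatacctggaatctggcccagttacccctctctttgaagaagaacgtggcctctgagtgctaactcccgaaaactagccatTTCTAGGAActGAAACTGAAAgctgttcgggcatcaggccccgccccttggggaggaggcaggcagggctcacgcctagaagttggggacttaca
Irgm2: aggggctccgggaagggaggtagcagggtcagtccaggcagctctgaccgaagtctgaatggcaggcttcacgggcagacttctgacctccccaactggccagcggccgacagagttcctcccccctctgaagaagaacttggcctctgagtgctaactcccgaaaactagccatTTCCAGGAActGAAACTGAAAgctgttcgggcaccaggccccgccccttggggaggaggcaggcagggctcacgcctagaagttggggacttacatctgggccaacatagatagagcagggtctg
Psmb8: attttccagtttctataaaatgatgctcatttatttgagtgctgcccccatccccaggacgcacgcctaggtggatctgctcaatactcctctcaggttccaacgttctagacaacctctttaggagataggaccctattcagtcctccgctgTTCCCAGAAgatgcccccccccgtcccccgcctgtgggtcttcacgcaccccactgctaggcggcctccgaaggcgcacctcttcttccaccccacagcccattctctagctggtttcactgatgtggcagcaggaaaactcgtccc
Irf7: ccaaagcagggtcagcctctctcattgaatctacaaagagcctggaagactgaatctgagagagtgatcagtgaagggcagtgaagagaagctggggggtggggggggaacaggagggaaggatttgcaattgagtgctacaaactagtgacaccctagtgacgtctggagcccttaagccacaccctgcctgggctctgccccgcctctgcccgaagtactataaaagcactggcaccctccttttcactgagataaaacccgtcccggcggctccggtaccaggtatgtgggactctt

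The 8 count tables held 34497509 to 46960005 unique molecular identifiers (UMIs) each, over 100673 barcodes. The authors' list of 27420 kept cells gave 20732 T cells after clustering, between 1778 and 3752 per library, and all 7 T cell markers were present in every library at a summed 2980 to 4020 CPM (a gene's UMIs divided by all UMIs of the library in those cells and multiplied by 1000000). Of these T cells 492 shared their barcode with a cell of another library. T cells were divided into subsets, and non-T populations were taken from all barcodes that met the limits. Names such as Treg-like rest on markers in clusters made without the members, so a population set against the others is described and not tested. CPM was computed on the UMIs of one population in one library. Tags from the 3' end do not scale with transcript length, so levels may be set side by side between genes.

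Among the populations tested, summed over the 39 members, endothelial-like barcodes held the most member RNA and plasma cell-like barcodes the least. Enteric glia-like, neutrophil-like and squamous epithelium-like barcodes, too few in some libraries to test, had libraries beyond these limits, at 4720 to 9610, 1050 to 8200 and 226 to 2350 CPM. The median over the 8 libraries was 5860 CPM in endothelial-like, 3920 CPM in dendritic cell-like, 3720 CPM in macrophage or monocyte-like and 3010 CPM in fibroblast-like barcodes. T cells held 2260 CPM and plasma cell-like barcodes 1510 CPM. Within T cells the regulatory T cell (Treg)-like subset stood highest at 3330 CPM, and the Th17-like and follicular helper (Tfh)-like subsets were at 1720 CPM each. Endothelial-like barcodes spanned 2770 to 7270 CPM over libraries, which overlapped dendritic cell-like (2770 to 4270 CPM) and macrophage or monocyte-like barcodes (2730 to 4490 CPM) but not T cells (1960 to 2390 CPM).

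**Figure D1:**
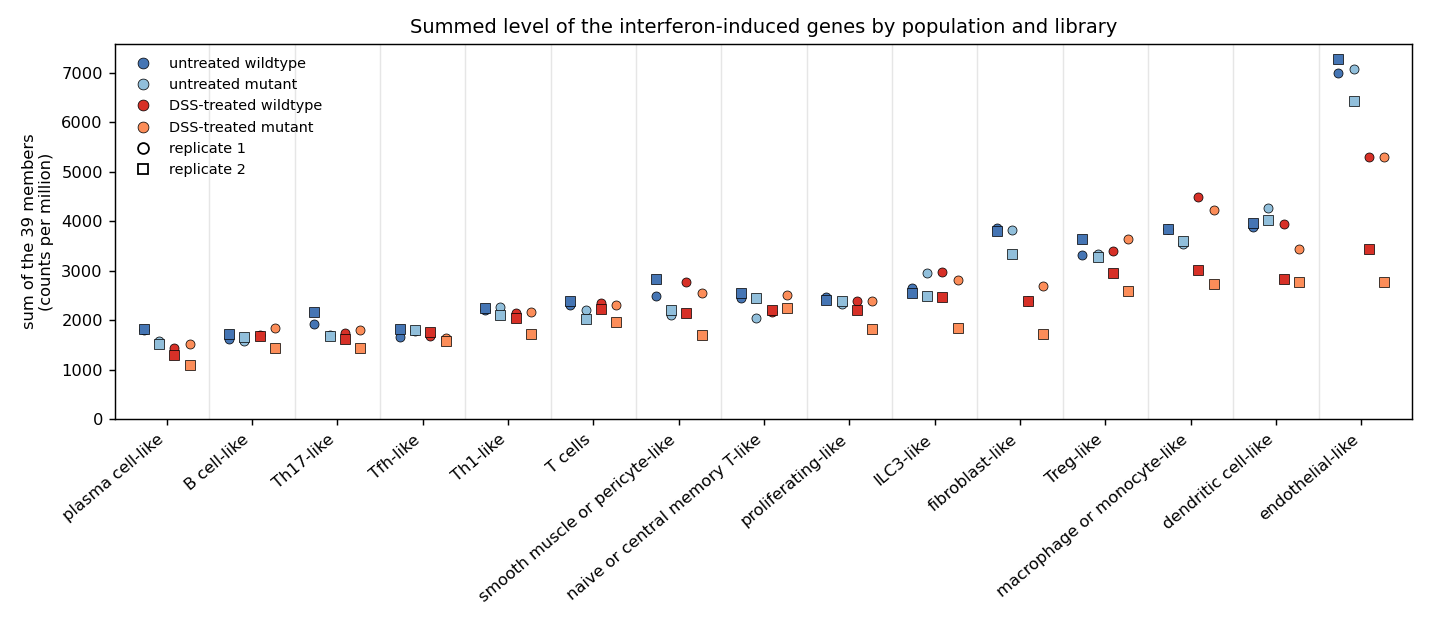
Summed level of the 39 members in CPM (vertical axis) in each tested population (horizontal axis); each point is 1 library, coloured by group. Endothelial-like barcodes have the highest median of those shown, and their 4 untreated libraries (6420 to 7270 CPM) lie above their 4 DSS libraries (2770 to 5300 CPM).

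Among the populations tested, 20 of the 39 members had their highest median level in endothelial-like barcodes. The others were highest in macrophage or monocyte-like (6), Treg-like (5), dendritic cell-like (5), naive or central memory T-like (2) and plasma cell-like sets (1). The untested populations, enteric glia-like barcodes among them, were left out of this ranking. Rsad2, which makes an antiviral nucleotide and encodes viperin, had a median of 126 CPM in endothelial-like and 140 CPM in macrophage or monocyte-like barcodes against 5.66 CPM in T cells. Ifit3, an IFIT protein, stood at 38.3 CPM in endothelial-like barcodes and 1.8 CPM in T cells. Irf8, a factor of myeloid and B cell development as well as of interferon responses, reached 376 CPM in dendritic cell-like, 371 CPM in macrophage or monocyte-like and 291 CPM in B cell-like barcodes against 22.4 CPM in T cells. Of these 3 genes T cells held the least in Ifit3, which held 120 UMIs over the 8 libraries.

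Iigp1, an immunity-related GTPase that coats microbe-holding vacuoles, had a median of 775 CPM in endothelial-like, 302 CPM in fibroblast-like and 43.8 CPM in T cell libraries. Among T cells Iigp1 was concentrated in Treg-like cells at 132 CPM, 3.01 times its level in all T cells, and Gbp3 stood there at 219 CPM, 2.17 times. Bst2, which encodes tetherin and holds virus particles at the cell surface, reached 407 CPM in plasma cell-like barcodes against 71.6 CPM in T cells. Oasl2, of the 2'-5' oligoadenylate synthetase family, was at 20.8 CPM in naive or central memory T-like cells and 7.52 CPM in T cells. The ratio to T cells was 1.34 for Oasl2 in Th17-like cells and 1.81 for Psmb9 in proliferating-like cells.

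In T cells after DSS, Irf7, 3 of 13 antiviral effectors, 2 of 5 sensors and related genes and 2 of 5 genes of the immunoproteasome and peptide loading were lower, and 3 of 5 immunity-related GTPases, Gbp7 and Samhd1 were higher. Averaged over both genotypes (4 DSS against 4 untreated libraries), 5 of the 39 members rose and 8 fell, at an edgeR adjusted p under 0.05 over all genes tested. The same test called 9.13% of 11064 genes higher and 9.28% lower, so the count of rises was close to what these percentages give for 39 genes and the count of falls above it. The median log2 fold change was -0.09 over the members and 0.01 over all genes. The count of 13 called members became 1 without wildtype untreated replicate 2, 7 without mutant untreated replicate 2 or wildtype DSS replicate 2, and 8 without wildtype untreated replicate 1 or mutant DSS replicate 2. Every untreated library lay above every DSS library for 6 members and below for 4, against 8.14% and 17.5% of all genes tested.

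Irf7, the transcription factor that amplifies type I interferon responses, fell most among the 5 transcription factors. Irf7 stood at 33.4 and 43.9 CPM in the wildtype and 37.6 and 48.4 CPM in the mutant untreated libraries, against 23 and 17.8 CPM in the wildtype and 27.8 and 16.8 CPM in the mutant DSS libraries. No DSS library reached an untreated one. The level was 2.03-fold lower after DSS (log2 fold change -1.02 ± 0.18, edgeR adjusted p = 0.00827). Irf1, Irf8, Irf9 and Stat2 changed by -0.16 to 0.07 on the log2 scale and did not pass the test. Irf1 and Irf9, the 2 most abundant of the group, had overlapping groups. Irf1 gave 120, 133, 125 and 135 CPM in the 4 untreated libraries and 126, 123, 133 and 107 CPM in the 4 DSS libraries. Irf9 gave 43.9, 42.1, 34.7 and 31.1 CPM in the 4 untreated libraries and 39.2, 39.7, 41.9 and 34.9 CPM in the 4 DSS libraries.

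Of 13 antiviral effectors 3 fell and 1 rose. Isg15 counts were 132 and 152 CPM in untreated wildtype, 164 and 200 CPM in untreated mutant, 119 and 113 CPM in DSS wildtype and 117 and 101 CPM in DSS mutant libraries. Isg15 encodes a ubiquitin-like protein that is joined to other proteins, and its untreated libraries all lay above its DSS libraries, with the untreated mutants at the top. It fell 1.51-fold (log2 fold change -0.59 ± 0.10, edgeR adjusted p = 0.00791). Oasl2 stood at 8.71 and 12 CPM in the wildtype and 10.4 and 11.5 CPM in the mutant untreated libraries, against 6.33 and 3.04 CPM in the wildtype and 5.71 and 3.42 CPM in the mutant DSS libraries. Oasl2 also had no overlap and fell 2.43-fold (log2 fold change -1.28 ± 0.25, edgeR adjusted p = 0.012).

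Ifit3 counts were 3.55 and 3.99 CPM in untreated wildtype, 1.78 and 1.81 CPM in untreated mutant, 2.4 and 1.24 CPM in DSS wildtype and 1.11 and 0.469 CPM in DSS mutant libraries. The groups overlapped for Ifit3, since DSS wildtype replicate 1 lay above both untreated mutant libraries, and all 8 libraries together held 120 Ifit3 UMIs in T cells. It was 2.35-fold lower (log2 fold change -1.23 ± 0.36, edgeR adjusted p = 0.0396). Samhd1, which breaks down the nucleotides that reverse transcription needs, moved the other way. Samhd1 gave 169 and 159 CPM in wildtype and 157 and 135 CPM in mutant untreated libraries, against 210 and 200 CPM in the wildtype DSS libraries, 195 CPM in DSS-treated mutant replicate 1 and a level between 200 and 210 CPM in replicate 2. All DSS libraries lay above all untreated libraries, and Samhd1 rose 1.24-fold (log2 fold change 0.31 ± 0.08, edgeR adjusted p = 0.025). The remaining 9 antiviral effectors ranged from -1.19 ± 0.39 (Mx1) to 0.15 ± 0.25 (Ifit2) and did not pass. Mx1, Oas1a and Usp18 held 111, 87 and 72 UMIs over all T cell libraries, and the C57BL/6 strain carries a defective Mx1 allele.

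The immunity-related GTPases had the highest median of the 6 roles, 0.51, and 3 of 5 rose. Irgm2 stood at 15.8 and 19.2 CPM in the wildtype and 18.2 and 16 CPM in the mutant untreated libraries, against 27.4 and 41.4 CPM in the wildtype and 28.7 and 33 CPM in the mutant DSS libraries. Irgm1 counts were 17.4 and 17 CPM in untreated wildtype, 15.7 and 11.2 CPM in untreated mutant, 24.8 and 24.4 CPM in DSS wildtype and 33.1 and 23.1 CPM in DSS mutant libraries. Irgm1 and Irgm2 encode regulators that keep the other GTPases off the cell's own membranes, and for both the lowest DSS library was above the highest untreated one. Irgm2 rose 1.78-fold (log2 fold change 0.84 ± 0.14, edgeR adjusted p = 0.00765) and Irgm1 1.64-fold (log2 fold change 0.71 ± 0.14, edgeR adjusted p = 0.0129). Iigp1 gave 42.6, 45, 33.1 and 24 CPM in the 4 untreated libraries and 50.8, 54.9, 65 and 41.6 CPM in the 4 DSS libraries. Iigp1 overlapped through DSS mutant replicate 2 and rose 1.42-fold (log2 fold change 0.51 ± 0.15, edgeR adjusted p = 0.0389). Neither Irgm1 nor Iigp1 was called in any T cell subset tested alone, whereas Irgm2 was called higher in Treg-like cells. Igtp and Ifi47, the 2 most abundant of the group, gave 0.10 ± 0.10 and 0.04 ± 0.11 and did not pass. Igtp gave 162, 207, 132 and 127 CPM in the 4 untreated libraries and 161, 184, 189 and 164 CPM in the 4 DSS libraries. Ifi47 counts were 53.6 and 68.3 CPM in untreated wildtype, 60.8 and 53.3 CPM in untreated mutant, 64 and 61.5 CPM in DSS wildtype and 72 and 58.8 CPM in DSS mutant libraries. Both had overlapping groups.

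Among 6 guanylate-binding protein genes, which encode large GTPases of the same defence, Gbp7 rose and the others did not pass. Gbp7 stood at 85.2 and 69.5 CPM in the wildtype and 60.5 and 52.1 CPM in the mutant untreated libraries, against 93.3 and 97.8 CPM in the wildtype and 80.5 and 93.2 CPM in the mutant DSS libraries. DSS mutant replicate 1 lay below 1 untreated wildtype library, so the groups overlapped. The rise was 1.31-fold (log2 fold change 0.39 ± 0.09, edgeR adjusted p = 0.0216). Gbp3 and Gbp2 were the most abundant and gave 0.20 ± 0.08 and -0.09 ± 0.18. Gbp3 gave 102, 109, 69.7 and 77.4 CPM in the 4 untreated libraries and 122, 117, 99.8 and 90.5 CPM in the 4 DSS libraries. Gbp2 counts were 86.6 and 102 CPM in untreated wildtype, 72.3 and 64.9 CPM in untreated mutant, 98.8 and 74.4 CPM in DSS wildtype and 94.5 and 51.6 CPM in DSS mutant libraries. Mutant libraries lay below the wildtype libraries of the same treatment for Gbp3, and in untreated mice for Gbp2. Members of this family share long stretches of sequence, so single Gbp values are uncertain where reads could be assigned to more than 1 copy.

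Of the 5 nucleic acid sensors and related genes 2 fell. Ifi35 counts were 36 and 41.3 CPM in untreated wildtype, 37.3 and 31.7 CPM in untreated mutant, 26.3 and 22.1 CPM in DSS wildtype and 27.4 and 20.9 CPM in DSS mutant libraries. Zbp1 stood at 47.8 and 49.4 CPM in the wildtype and 46.7 and 38.2 CPM in the mutant untreated libraries, against 42 and 36.6 CPM in the wildtype and 37 and 30.1 CPM in the mutant DSS libraries. Ifi35, a regulator of RNA sensing, had no overlap between treatments, whereas Zbp1, which senses Z-form nucleic acid and starts cell death, overlapped through untreated mutant replicate 2. Ifi35 fell 1.59-fold (log2 fold change -0.67 ± 0.12, edgeR adjusted p = 0.00897) and Zbp1 1.32-fold (log2 fold change -0.40 ± 0.10, edgeR adjusted p = 0.0288). Parp14, an ADP-ribosyltransferase, was the most abundant of the group and gave -0.02 ± 0.10. Parp14 gave 80.7, 64.6, 61.1 and 59.7 CPM in the 4 untreated libraries and 77.7, 65.7, 71.3 and 60.4 CPM in the 4 DSS libraries.

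Psmb8 and Psmb10 encode catalytic subunits that replace the constitutive ones in the immunoproteasome, and both fell. Psmb8 stood at 311 and 340 CPM in the wildtype and 356 and 287 CPM in the mutant untreated libraries, against 283 and 229 CPM in the wildtype and 230 and 219 CPM in the mutant DSS libraries. Psmb10 counts were 71 and 56.5 CPM in untreated wildtype, 83.6 and 57.3 CPM in untreated mutant, 55.8 and 47.9 CPM in DSS wildtype and 48.6 and 42.1 CPM in DSS mutant libraries. For each the highest DSS library was just under the lowest untreated library, a gap of a few CPM for Psmb8 and below 1 CPM for Psmb10. Psmb8 fell 1.42-fold (log2 fold change -0.50 ± 0.10, edgeR adjusted p = 0.0123) and Psmb10 1.45-fold (log2 fold change -0.54 ± 0.13, edgeR adjusted p = 0.0213). The third subunit gene Psmb9 gave -0.03 ± 0.11, the peptide transporter gene Tap1 0.18 ± 0.08 and Tapbp, which encodes tapasin, 0.12 ± 0.09, and none passed. Tapbp gave 140, 121, 115 and 99.4 CPM in the 4 untreated libraries and 119, 144, 147 and 130 CPM in the 4 DSS libraries. Tap1 nonetheless had all DSS libraries above all untreated libraries.

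**Figure D2:**
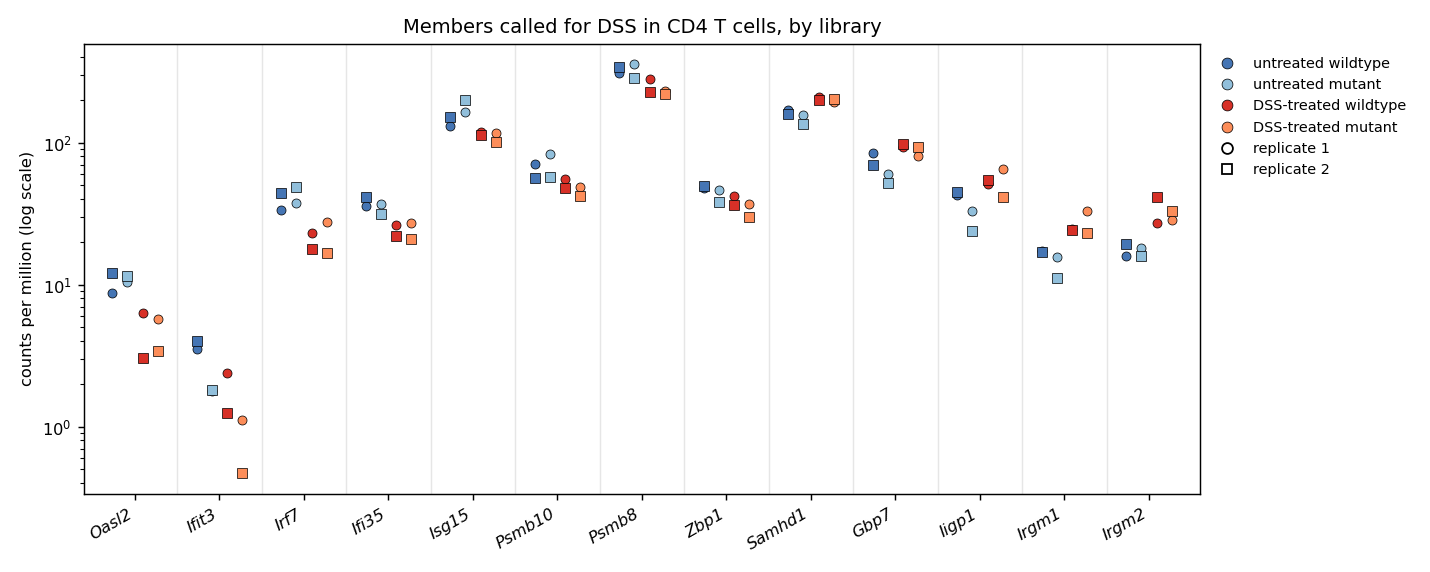
Level in T cells (CPM, log axis) of the 13 members called for DSS averaged over genotypes, 1 point per library and 1 colour per group. The DSS points of Irf7, Isg15, Oasl2, Ifi35, Psmb8 and Psmb10 all lie below the untreated points, and those of Irgm1, Irgm2 and Samhd1 all lie above them.

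Each genotype was also tested alone. In mutant mice 3 members fell (Irf7 -1.07 ± 0.25, Isg15 -0.83 ± 0.14, Psmb8 -0.60 ± 0.14) and 2 rose (Irgm1 0.97 ± 0.21, Gbp7 0.55 ± 0.13), at edgeR adjusted p values between 0.0238 and 0.0486, where 2.87% of all genes fell and 2.38% rose. These 5 calls became 0 when the 4 libraries compared were fitted alone, 0 without either untreated mutant library, 1 without either untreated wildtype library and 2 without mutant DSS replicate 2. They became 13 with no filter on low counts (8.45% of genes), 9 with DESeq2 (5.1%), 11 with T cell barcodes on the authors' list or not (8.47%) and 8 without T cells holding UMIs of 3 or more non-T genes (4.89%). In wildtype mice edgeR called 0 members and 0.208% of all genes. There DESeq2 called 3 members and 1.82% of genes, and 10 members had an unadjusted edgeR p under 0.05, beside 18.6% of genes. With no filter on low counts edgeR called 5, beside 4.43% of genes. The test of the difference between genotypes, the interaction, called 0 members and 0% of genes, with 2 members and 3.89% of genes at an unadjusted p under 0.05 and 0 members called by DESeq2. The genotypes were therefore not shown to differ in their response to DSS. The median log2 fold change of the members was -0.11 in mutant and -0.09 in wildtype mice. Among 16 heat-shock and dissociation-response genes 8 fell in mutant T cells (median -0.84) and 0 in wildtype T cells (median -0.16). Their part in the member calls was not tested.

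Upstream of these genes, Ifng was the 1 interferon ligand gene of 10 with enough counts to test in T cells, and it fell. Ifng stood at 181 and 281 CPM in the wildtype and 284 and 228 CPM in the mutant untreated libraries, against 121 and 149 CPM in the wildtype and 143 and 133 CPM in the mutant DSS libraries. All DSS libraries lay below all untreated ones (log2 fold change -0.91 ± 0.14, edgeR adjusted p = 0.00585). Socs1, a feedback inhibitor of JAK kinases, fell as well (log2 fold change -0.48 ± 0.10, edgeR adjusted p = 0.0122). The receptor genes Ifngr1, Ifngr2, Ifnar1 and Ifnar2 gave log2 fold changes from -0.14 to 0.14, and none of the 4 passed. Of 5 receptor genes tested 1 rose (Il10rb), of 7 signalling genes 2 rose (Tyk2, Nlrc5), and of 7 inhibitors 2 fell (Ptpn6, Socs1).

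A wider list of other interferon-induced genes held 85 names, of which 73 could be tested in T cells. After DSS 8 rose, among them Ifi205 and the retrovirus-restricting Apobec3, and 14 fell, among them Gbp10 and Ifi27, beside the 9.13% and 9.28% of all genes, with a median of -0.21. The rises were thus near the share over all genes. None of 7 constitutive proteasome subunit genes was called by edgeR, at a median of -0.18, and Psmb5, Psmb6 and Psmb7, the counterparts of the immunoproteasome subunits, gave -0.23 ± 0.12, -0.28 ± 0.09 and 0.04 ± 0.09. Other measures moved with treatment in T cells. The Treg-like share of T cells was 11.02% to 15.3% in untreated and 20.68% to 27.32% in DSS libraries, and 9 of 16 heat-shock and dissociation-response genes fell. The Th1-like share was 32.54%, 25.4%, 33.18% and 15.34% in untreated and 11.43%, 22.23%, 8.24% and 24.36% in DSS libraries, which overlapped. Within Th1-like cells Ifng was at 428 ± 124 CPM in wildtype and 440 ± 24.3 CPM in mutant untreated libraries, against 375 ± 16.6 and 356 ± 16.9 CPM after DSS (SD, n = 2 each). Th17-like cells held Ifng too, at 254 ± 129 and 372 ± 36.4 CPM in untreated and 228 ± 20.6 and 205 ± 27.4 CPM in DSS libraries. Proliferating-like cells held it at 232 ± 65.6 and 287 ± 146 CPM in untreated and 78.2 ± 40.5 and 72.6 ± 4.18 CPM in DSS libraries, in the same order of wildtype and mutant. The summed level of the heat-shock genes was 25800 and 26300 CPM in the untreated mutant libraries and 11700 to 16300 CPM in the other 6. The part of composition and of heat shock in the member changes was not tested, and in summed counts fewer cells of a type and less RNA per cell cannot be told apart.

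Testing within subsets holds the composition of the T cells closer. In Treg-like cells 2 members rose and 9 fell of 33 tested, beside 5.06% and 5.48% of genes. Psmb8 counts were 363 and 409 CPM in untreated wildtype, 407 and 372 CPM in untreated mutant, 314 and 245 CPM in DSS wildtype and 259 and 219 CPM in DSS mutant libraries. Isg15 gave 188, 215, 156 and 199 CPM in the 4 untreated libraries and 157, 135, 139 and 106 CPM in the 4 DSS libraries. Irgm2 stood at 25.5 and 38.9 CPM in the wildtype and 37.2 and 26.6 CPM in the mutant untreated libraries, against 46.8 and 66.4 CPM in the wildtype and 46.1 and 56.1 CPM in the mutant DSS libraries. Psmb8 was lower and Irgm2 higher in every DSS library than in any untreated one, and Isg15 overlapped through DSS wildtype replicate 1 and untreated mutant replicate 1. The log2 fold changes were -0.63 ± 0.11, edgeR adjusted p = 0.00372 for Psmb8, -0.55 ± 0.13, edgeR adjusted p = 0.0133 for Isg15 and 0.70 ± 0.19, edgeR adjusted p = 0.0305 for Irgm2. Gbp7 also rose (0.40 ± 0.12), and Ifit1, Irf7, Gbp6, Bst2, Ifi35, Psmb10 and Zbp1 fell, with log2 fold changes from -1.27 ± 0.35 (Ifit1) to -0.47 ± 0.14 (Zbp1). Without wildtype untreated replicate 2, either untreated mutant, wildtype DSS replicate 2 or mutant DSS replicate 2, 2 or 3 members were called in place of 11, and without wildtype untreated replicate 1 there were 5. DESeq2 called 5 members, all lower, beside 3.02% of genes. Iigp1 in Treg-like cells did not pass. Iigp1 gave 151, 148, 130 and 103 CPM in the 4 untreated libraries and 134, 112, 180 and 85 CPM in the 4 DSS libraries.

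In Th1-like cells, whose type is known for making interferon gamma, 7 of 32 members fell and 0 rose, beside 7.35% of genes that fell. The share of genes that rose there is not given. Irf7 stood at 36.1 and 57.7 CPM in the wildtype and 47.4 and 68.3 CPM in the mutant untreated libraries, against 30.6 and 17.1 CPM in the wildtype and 32.5 and 19.4 CPM in the mutant DSS libraries. Psmb8 counts were 308 and 341 CPM in untreated wildtype, 408 and 339 CPM in untreated mutant, 255 and 215 CPM in DSS wildtype and 232 and 194 CPM in DSS mutant libraries. DSS libraries lay below all untreated ones for both genes. Irf7 fell 2.39-fold (log2 fold change -1.26 ± 0.23, edgeR adjusted p = 0.00117) and Psmb8 1.66-fold (-0.73 ± 0.12, edgeR adjusted p = 0.000353). Ifit1 (-1.33 ± 0.36), Bst2, Ifi35, Zbp1 and Psmb10 were the other members called. DESeq2 called 2 members lower in place of 7, beside 2.76% of genes. The count became 3 without mutant untreated replicate 1, 2 without wildtype DSS replicate 2 and 1 without mutant DSS replicate 2.

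In Th17-like cells 3 of 33 members fell, beside 3.87% of genes. Oasl2 gave 11.6, 19, 19 and 16.8 CPM in the 4 untreated libraries and 8.69, 4.8, 7.63 and 7.04 CPM in the 4 DSS libraries. Irf7 counts were 36.8 and 46.5 CPM in untreated wildtype, 49.3 and 55.9 CPM in untreated mutant, 30.9 and 20.8 CPM in DSS wildtype and 29.6 and 21.6 CPM in DSS mutant libraries. DSS and untreated libraries did not overlap for either gene. The log2 fold changes were -1.20 ± 0.24, edgeR adjusted p = 0.0117 for Oasl2 and -0.86 ± 0.16, edgeR adjusted p = 0.00812 for Irf7, and Psmb8 fell too (-0.63 ± 0.13). The 3 calls became 0 without wildtype untreated replicate 2, 1 without mutant untreated replicate 2, 5 without wildtype DSS replicate 1 and 8 without mutant DSS replicate 1, and 7 with no filter on low counts, beside 6.45% of genes. In Tfh-like cells 3 of 30 members fell (Psmb10, Isg15, Psmb8), beside 3.05% of genes, and this count became 0 without wildtype untreated replicate 2 or either replicate 2 DSS library and 1 without mutant untreated replicate 1. DESeq2 called 1 there, beside 1.24% of genes. In Tfh-like cells the Isg15 mean was lower after DSS in mutant and not in wildtype libraries, but the interaction did not pass the test. Isg15 was at 227 ± 45.2 CPM in untreated and 99.3 ± 16.1 CPM in DSS mutant libraries, against 96.3 ± 28.2 and 116 ± 1.68 CPM in wildtype (SD, n = 2 each). In naive or central memory T-like cells 2 of 28 fell, beside 2.89% of genes, and 0 without wildtype untreated replicate 2, mutant untreated replicate 1 or mutant DSS replicate 2. DESeq2 called 0 of them. Isg15 gave 61.5, 172, 116 and 86.5 CPM in the 4 untreated libraries and 58, 46, 63.1 and 63.2 CPM in the 4 DSS libraries. Irf7 counts were 65.1 and 69.4 CPM in untreated wildtype, 60 and 51.1 CPM in untreated mutant, 22.3 and 34.5 CPM in DSS wildtype and 40.2 and 37.5 CPM in DSS mutant libraries. Isg15 overlapped there, since untreated wildtype replicate 1 lay within the DSS range, and Irf7 did not. The log2 fold changes were -1.04 ± 0.24, edgeR adjusted p = 0.0172 for Isg15 and -1.01 ± 0.25, edgeR adjusted p = 0.0245 for Irf7.

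In proliferating-like T cells 5 of 31 members fell and 2 rose, beside 6.49% and 4.68% of genes. Isg15 stood at 142 and 132 CPM in the wildtype and 129 and 169 CPM in the mutant untreated libraries, against 89.8 and 79.9 CPM in the wildtype and 79.2 and 67 CPM in the mutant DSS libraries. The lowest untreated library was well above the highest DSS library, and Isg15 fell 1.83-fold (log2 fold change -0.87 ± 0.13, edgeR adjusted p = 0.000343). Irf7 (-1.52 ± 0.30) and Ifi35 (-0.95 ± 0.19) fell with Psmb10 and Psmb8, while Samhd1 (0.44 ± 0.13) and Gbp3 (0.39 ± 0.12) rose. DESeq2 called 4 members lower and 0 higher, beside 2.99% of genes that fell. The 7 edgeR calls became 3 without mutant untreated replicate 1, 4 without wildtype DSS replicate 2 and 11 without mutant DSS replicate 1 or with no filter on low counts, the last beside 7.14% of genes. Across the 15 sets tested (T cells as a whole, 6 subsets and 8 non-T populations, where T cells and subsets share cells), Psmb8 was called lower in 13, Ifi35 in 10, Irf7 and Psmb10 in 8 and Isg15 in 7. None of these 5 was called higher by edgeR in any of the 15. Irgm1, Irgm2, Iigp1 and Samhd1 were called higher in 3 each, and of these Irgm1 and Iigp1 were called lower in fibroblast-like barcodes. The share of all genes called in as many sets is not given, so these counts cannot be set against it. All 15 sets came from the same 8 libraries, so a repeated call is not a replication.

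**Figure D3:**
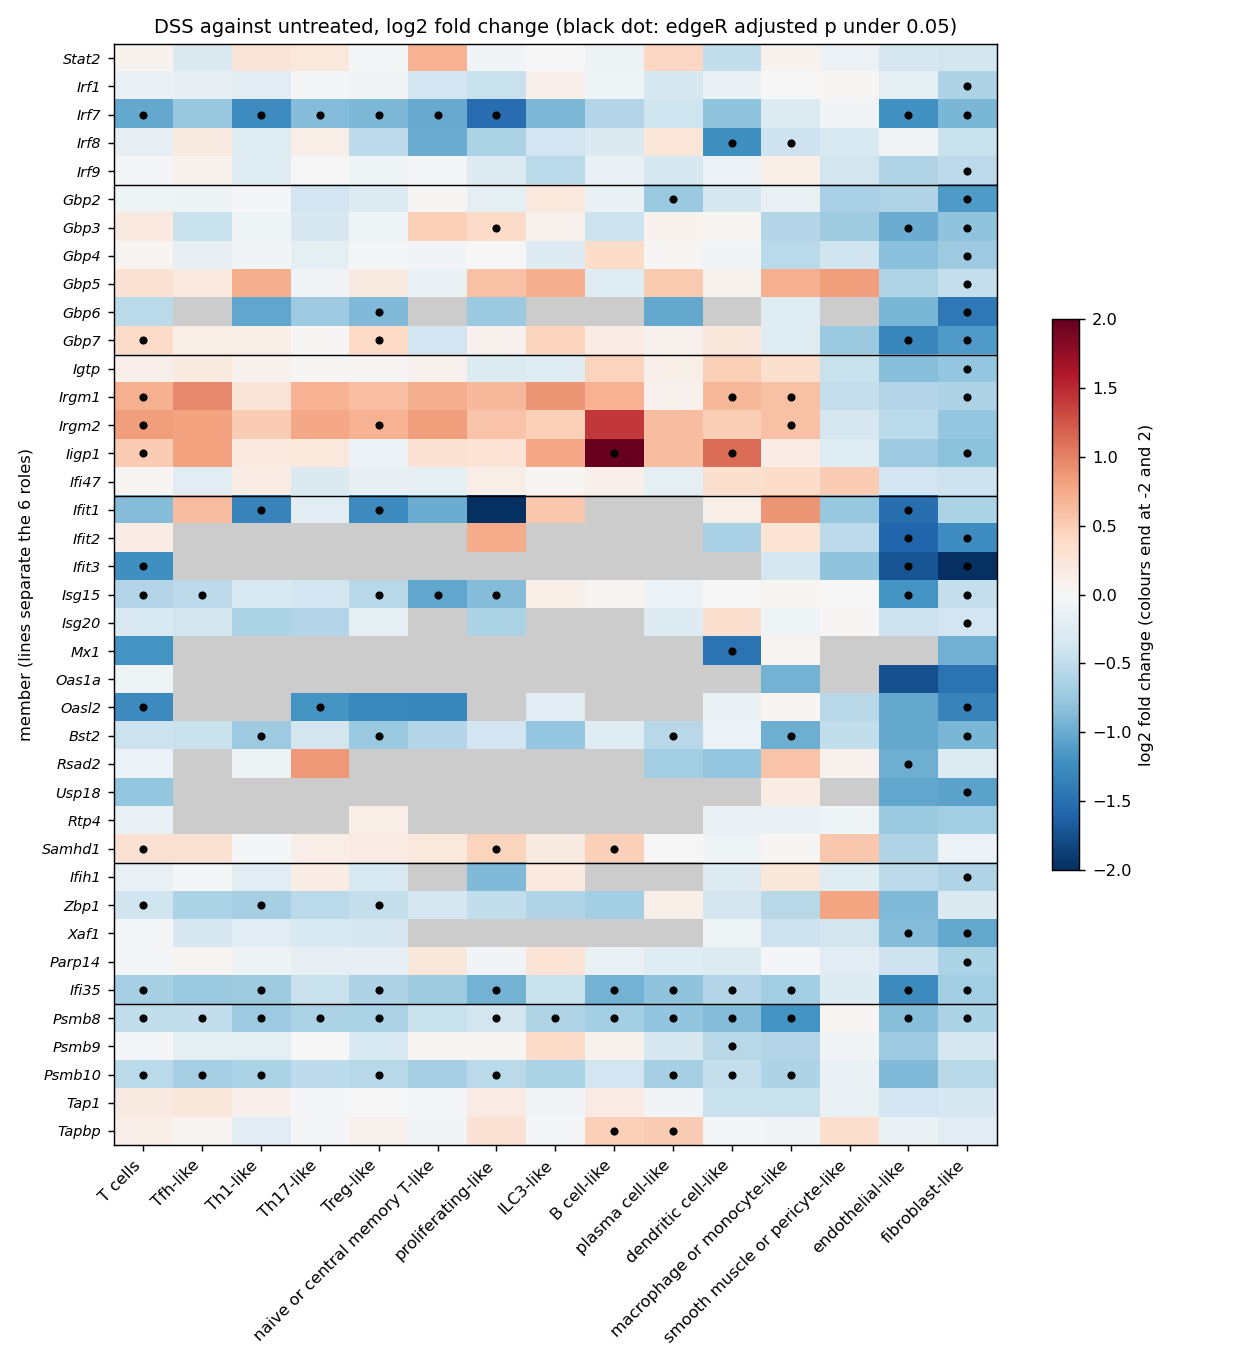
Log2 fold change after DSS, averaged over genotypes, of the 39 members (vertical axis, grouped by role) in T cells, 6 T cell subsets and 8 non-T populations (horizontal axis); dots mark an edgeR adjusted p under 0.05 and blank cells were not tested. The fibroblast-like and endothelial-like columns are below 0 throughout, and the Psmb8 line holds 13 dots.

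In fibroblast-like barcodes 24 of the 39 members fell after DSS and the other 15 did not pass the test. Those 24 stood beside 9.58% of 13630 genes called lower, and 0 members were called higher. All 39 were tested and had an estimated log2 fold change below 0, with a median of -0.64. For all genes the median, the share below 0 and the share called higher are not given. Every DSS library lay below every untreated library for 26 of the 39 members, against 14.8% of all genes tested. The reverse held for 0 members and for 1406 of 13630 genes. All 6 guanylate-binding proteins fell, as did 3 of 5 transcription factors, 3 of 5 immunity-related GTPases, 7 of 13 antiviral effectors, 4 of 5 sensors and related genes, and 1 of 5 genes of the immunoproteasome and peptide loading.

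Ifit3 stood at 22.6 and 16.4 CPM in the wildtype and 22.4 and 21.3 CPM in the mutant untreated libraries, against 7.34 and 2.37 CPM in the wildtype and 9.23 and 1.2 CPM in the mutant DSS libraries. Gbp6 counts were 18.8 and 17.9 CPM in untreated wildtype, 17.4 and 16 CPM in untreated mutant, 5.24 and 8.53 CPM in DSS wildtype and 7.35 and 3.06 CPM in DSS mutant libraries. Oasl2 gave 36.4, 34.4, 43.4 and 40 CPM in the 4 untreated libraries and 18.3, 13, 19.3 and 9.4 CPM in the 4 DSS libraries. In these 3 genes, 2 of them antiviral and 1 a guanylate-binding protein, no DSS library came near the untreated range. Ifit3 fell 4.73-fold (log2 fold change -2.24 ± 0.46, edgeR adjusted p = 0.013), Gbp6 2.7-fold (-1.43 ± 0.24, edgeR adjusted p = 0.00546) and Oasl2 2.53-fold (-1.34 ± 0.19, edgeR adjusted p = 0.00287). Ifit2 counts were 30.2 and 20.9 CPM in untreated wildtype, 24.5 and 27.4 CPM in untreated mutant, 8.91 and 10.4 CPM in DSS wildtype and 16.1 and 6.12 CPM in DSS mutant libraries. Gbp2 stood at 218 and 223 CPM in the wildtype and 230 and 150 CPM in the mutant untreated libraries, against 87.5 and 102 CPM in the wildtype and 107 and 59.8 CPM in the mutant DSS libraries. Gbp7 gave 155, 129, 148 and 122 CPM in the 4 untreated libraries and 59.2, 61, 80 and 42.9 CPM in the 4 DSS libraries. Gbp2 and Gbp7 were among the more abundant members here, and all untreated libraries lay above all DSS libraries for these and for Ifit2. Ifit2 fell 2.35-fold (log2 fold change -1.24 ± 0.26, edgeR adjusted p = 0.014), Gbp2 2.19-fold (-1.13 ± 0.19, edgeR adjusted p = 0.0065) and Gbp7 2.18-fold (-1.13 ± 0.18, edgeR adjusted p = 0.00451).

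Usp18 gave 6.4, 8.29, 10.2 and 6.3 CPM in the 4 untreated libraries and 5.77, 3.08, 4.45 and 2.3 CPM in the 4 DSS libraries. Xaf1 counts were 20.8 and 16.2 CPM in untreated wildtype, 24.3 and 23.1 CPM in untreated mutant, 12.1 and 8.41 CPM in DSS wildtype and 14.5 and 5.91 CPM in DSS mutant libraries. Usp18 removes ISG15 from proteins and dampens interferon receptors, and Xaf1 promotes cell death, and neither gene's treatments overlapped. The log2 fold changes were -1.07 ± 0.28 for Usp18 and -1.03 ± 0.24 for Xaf1. Iigp1 (-0.82 ± 0.23), among the most abundant members of fibroblast-like barcodes, fell too. Iigp1 stood at 555 and 457 CPM in the wildtype and 417 and 300 CPM in the mutant untreated libraries, against 196 and 303 CPM in the wildtype and 277 and 144 CPM in the mutant DSS libraries. DSS wildtype replicate 2 lay just above the lowest untreated library. Irf8 gave -0.44 ± 0.14 and did not pass. Irf8 gave 182, 208, 179 and 155 CPM in the 4 untreated libraries and 115, 160, 122 and 106 CPM in the 4 DSS libraries.

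**Figure D4:**
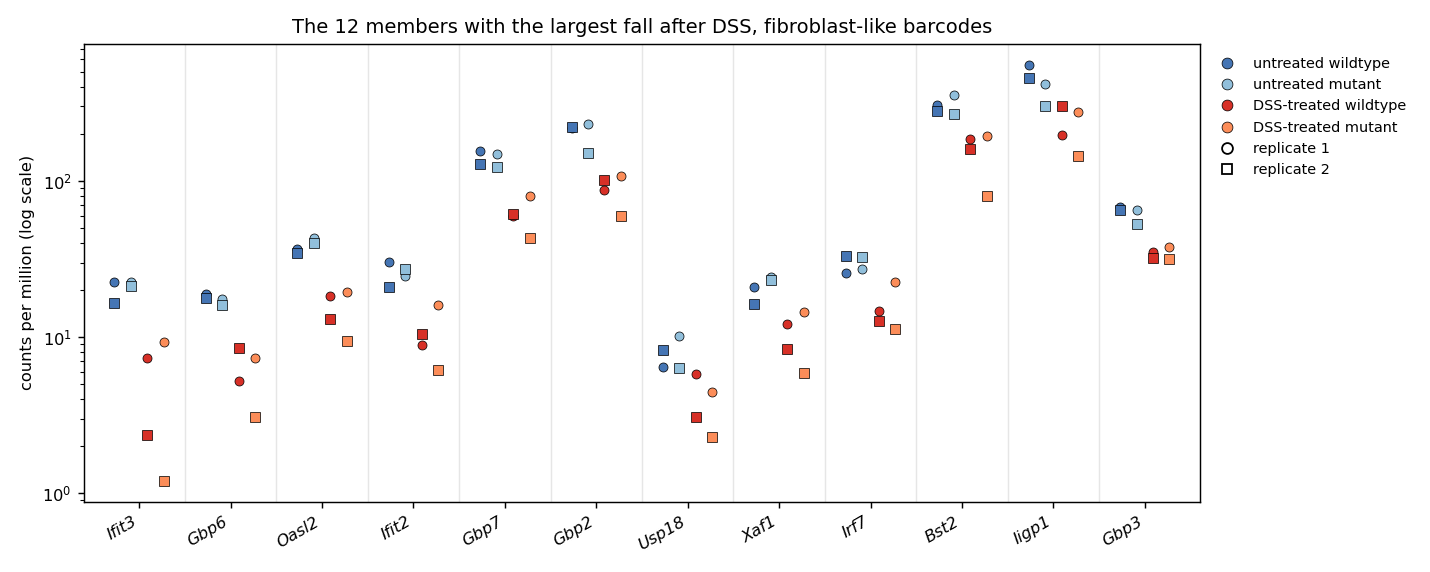
Level in fibroblast-like barcodes (CPM, log axis) of the 12 members with the largest fall after DSS, 1 point per library and 1 colour per group. Ifit3, Gbp6, Oasl2, Ifit2, Gbp2 and Gbp7 have every DSS point below every untreated point.

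Estimates were mostly below 0 within each genotype too, where fewer members were called. The share of all genes below 0 within a genotype is not given. In wildtype mice 3 members fell (Gbp7, Gbp3, Igtp), beside 0.961% of genes, and 38 of 39 were below 0 with a median of -0.63. In mutant mice 6 fell (Mx1, Gbp6, Oasl2, Gbp2, Gbp7, Gbp3), beside 3.19% of genes, and 39 of 39 were below 0 with a median of -0.68. Of these Mx1 rested on few UMIs. It was at 2.11 ± 0.357 CPM in untreated and 0.506 ± 0.252 CPM in DSS mutant libraries, against 1.37 ± 0.234 and 1.64 ± 0.645 CPM in wildtype (SD, n = 2 each). Leaving out 1 library at a time gave 0 to 14 calls in wildtype mice, with 0 without either untreated wildtype library or wildtype DSS replicate 1, and 0 to 28 in mutant mice, with 0 without either untreated mutant library. With no filter on low counts there were 20 calls in wildtype and 24 in mutant mice (7.77% and 12.8% of genes), with DESeq2 9 and 10 (4.02% and 7.49%), and in cluster 12 alone 8 and 10 (3.76% and 11.4%). The fibroblast-like barcodes came from 4 clusters of unequal share: clusters 9 and 11 were mostly from untreated libraries and cluster 10 mostly from DSS libraries. In cluster 12 alone, present at 110 to 360 barcodes in each library, 20 of 36 members fell, beside 8.68% of genes, and the median was -0.66. The part of cluster composition in the pooled result was otherwise not tested. For the counts that follow, each with 1 library left out, the share of all genes called is not given, so they cannot be set against it. DSS wildtype replicate 1 gave only 242 fibroblast-like barcodes, and without it 18 members were called. Without any single untreated library the count was 8 or 9, without wildtype DSS replicate 2 it was 11, and without mutant DSS replicate 1 it was 35, with all called members lower.

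Beyond the 39, 25 of 75 other interferon-induced genes fell in fibroblast-like barcodes and 3 rose (Ifi205, Apobec3, Tap2), beside the 9.58% of all genes that fell, with a median of -0.35. Those that fell included the chemokine genes Cxcl9 and Cxcl10, Tgtp2 and Gbp10. None of the constitutive proteasome subunit genes was called by edgeR, at a median of 0.04. Other sums moved with treatment. Heat-shock genes summed to 32700 to 34600 CPM in untreated and 19800 to 21600 CPM in DSS libraries, and 12 of 16 fell. Plasma cell markers summed to 865 to 1490 CPM in untreated and 3190 to 5570 CPM in DSS libraries, and macrophage or monocyte markers to 707 to 1330 CPM and 270 to 563 CPM. The part of these in the member changes was not tested.

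Endothelial-like barcodes showed the same direction with a larger spread. Of 38 members tested 11 fell and 0 rose, beside 2.16% of 11142 genes called lower, and all 38 were below 0 with a median of -0.84. Here too the median of all genes, their share below 0 and the share called higher are not given. Every DSS library lay below every untreated one for 21 of 38 members, against 6.26% of all genes. The reverse held for 0 members and for 855 of 11142 genes. Isg15 stood at 446 and 470 CPM in the wildtype and 431 and 443 CPM in the mutant untreated libraries, against 258 and 119 CPM in the wildtype and 281 and 135 CPM in the mutant DSS libraries. Gbp7 counts were 412 and 493 CPM in untreated wildtype, 451 and 403 CPM in untreated mutant, 247 and 141 CPM in DSS wildtype and 243 and 88.7 CPM in DSS mutant libraries. Ifit1 gave 101, 111, 107 and 106 CPM in the 4 untreated libraries and 74.1, 23.7, 41 and 15.7 CPM in the 4 DSS libraries. In each gene the 4 untreated libraries were close together and the replicate 1 DSS libraries lay between them and the replicate 2 DSS libraries. Isg15 fell 2.28-fold (log2 fold change -1.19 ± 0.24, edgeR adjusted p = 0.0194), Gbp7 2.47-fold (-1.31 ± 0.26, edgeR adjusted p = 0.0176) and Ifit1, whose protein binds foreign RNA caps, 2.84-fold (-1.51 ± 0.29, edgeR adjusted p = 0.016).

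Ifit3 gave 44.2, 61.7, 46.4 and 64.4 CPM in the 4 untreated libraries and 32.4, 11.8, 19.5 and 3.14 CPM in the 4 DSS libraries. Ifi35 counts were 68.9 and 97.6 CPM in untreated wildtype, 92.5 and 105 CPM in untreated mutant, 48.7 and 25.7 CPM in DSS wildtype and 46.6 and 29 CPM in DSS mutant libraries. Irf7 stood at 70.8 and 46.4 CPM in the wildtype and 64.2 and 53.2 CPM in the mutant untreated libraries, against 23.2 and 25.7 CPM in the wildtype and 37.9 and 13.3 CPM in the mutant DSS libraries. None of the 3 overlapped between treatments. The log2 fold changes were -1.73 ± 0.35, edgeR adjusted p = 0.0194 for Ifit3, -1.28 ± 0.21, edgeR adjusted p = 0.0087 for Ifi35 and -1.21 ± 0.26, edgeR adjusted p = 0.027 for Irf7. Ifit2 (-1.58 ± 0.33) was called as well, with Gbp3, Rsad2, Xaf1 and Psmb8. Rsad2 and Iigp1 stood high in these barcodes beside T cells. Rsad2 gave 127, 245, 174 and 211 CPM in the 4 untreated libraries and 125, 57.3, 100 and 107 CPM in the 4 DSS libraries. Iigp1 counts were 1260 and 969 CPM in untreated wildtype, 941 and 773 CPM in untreated mutant, 732 and 515 CPM in DSS wildtype and 776 and 381 CPM in DSS mutant libraries. For Rsad2 the highest DSS library was just under the lowest untreated one, and Iigp1 overlapped through DSS mutant replicate 1 and did not pass. No immunity-related GTPase was called by edgeR in endothelial-like barcodes, although the median of the 5 was -0.59.

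Within genotypes, 38 of 38 endothelial-like members were below 0 in wildtype mice (median -0.73) and 37 in mutant mice (median -0.83). The share of all genes below 0 is not given for either genotype. Of 71 other interferon-induced genes 14 fell and 1 rose (Apobec3), beside the 2.16% of all genes that fell, with a median of -0.50. The heat-shock sum was 33200 to 41000 CPM in untreated and 23100 to 30200 CPM in DSS libraries, and its part in the result was not tested. The 11 calls became 2 without wildtype untreated replicate 2 or wildtype DSS replicate 2, 3 without mutant untreated replicate 2, 5 without mutant DSS replicate 2, 6 without mutant untreated replicate 1 and 26 without mutant DSS replicate 1. For these counts with 1 library left out the share of all genes called is not given. In cluster 13 alone 18 members were called lower, beside 2.55% of genes, and with no filter on low counts 29, beside 3.66%.

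Whether the response to DSS differed between populations was tested directly, as the difference of 2 DSS effects in 1 edgeR model, a test chosen after seeing the data. Between fibroblast-like barcodes and T cells 17 members had a lower DSS effect in fibroblast-like barcodes and 0 a higher one, beside 2.53% of genes that were lower, with a median of -0.52 over members and -0.02 over all genes. The largest were Irgm2 (-1.72 ± 0.32, edgeR adjusted p = 0.0105), Gbp7 (-1.57 ± 0.18, edgeR adjusted p = 0.000607), Ifit2 (-1.46 ± 0.28), Iigp1 (-1.40 ± 0.16, edgeR adjusted p = 0.000591) and Irgm1 (-1.39 ± 0.18, edgeR adjusted p = 0.00125). Gbp2, Gbp3 and Igtp also differed, at -1.04 ± 0.16, -1.02 ± 0.15 and -0.91 ± 0.13. Of the 6 members called lower in both, none passed the test of the difference. Irf7 (0.09 ± 0.13), Isg15 (0.07 ± 0.15), Oasl2 (-0.05 ± 0.21), Ifi35 (-0.06 ± 0.14) and Psmb8 (-0.18 ± 0.12) had differences between -0.18 and 0.09. Ifit3 had a larger one, at -0.93 ± 0.47, edgeR adjusted p = 0.273.

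Between endothelial-like barcodes and T cells 11 members differed, all with a lower DSS effect in endothelial-like barcodes, beside 1.53% of genes, with a median of -0.62. Gbp7 gave -1.77 ± 0.26, edgeR adjusted p = 0.00168 and Iigp1 -1.26 ± 0.16, edgeR adjusted p = 0.000857, and Ifit2, Irgm1 and Irgm2 were called too. Between fibroblast-like and macrophage or monocyte-like barcodes 17 members had a lower DSS effect in fibroblast-like barcodes, beside 4.11% of genes, with a median of -0.62. Igtp gave -1.08 ± 0.14, edgeR adjusted p = 0.000638, Oasl2 -1.30 ± 0.18, edgeR adjusted p = 0.000886, Ifit1 -1.55 ± 0.26 and Ifit3 -1.63 ± 0.26. Psmb8 was the 1 member that differed the other way, at 0.54 ± 0.13, edgeR adjusted p = 0.0184. The first count became 10 without mutant untreated replicate 1, and the second 20 with no filter on low counts (4.04% of genes), 17 without wildtype untreated replicate 1 and 7 without wildtype untreated replicate 2, mutant untreated replicate 1 or either replicate 2 DSS library. In the 3 tests both populations came from the same mice, and the model paired them with 1 term per library.

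Macrophage or monocyte-like barcodes, resident and recruited phagocytes, held 2 members that rose and 5 that fell of 39 tested, beside 12.5% of genes higher and 12.9% lower. Psmb8 stood at 281 and 393 CPM in the wildtype and 398 and 400 CPM in the mutant untreated libraries, against 218 and 159 CPM in the wildtype and 205 and 131 CPM in the mutant DSS libraries. Bst2 counts were 267 and 257 CPM in untreated wildtype, 337 and 247 CPM in untreated mutant, 193 and 130 CPM in DSS wildtype and 185 and 119 CPM in DSS mutant libraries. Irgm1 gave 40.8, 33.4, 27 and 27.7 CPM in the 4 untreated libraries and 63.1, 51.5, 60.5 and 39.6 CPM in the 4 DSS libraries. Psmb8 and Bst2 were lower in every DSS library, and Irgm1 was higher in all DSS libraries than in the untreated mutants but overlapped untreated wildtype replicate 1. The log2 fold changes were -1.20 ± 0.18, edgeR adjusted p = 0.00197 for Psmb8, -0.98 ± 0.18, edgeR adjusted p = 0.00406 for Bst2 and 0.59 ± 0.16, edgeR adjusted p = 0.0195 for Irgm1. Irgm2 rose (0.59 ± 0.17), and Ifi35, Psmb10 and Irf8 fell. Among the constitutive proteasome subunit genes 4 of 7 fell as well, at a median of -0.33, and 14 of 16 heat-shock genes fell. Of 73 other interferon-induced genes 3 rose and 18 fell, among them Gbp2b and Cxcl9, with a median of -0.23. In cluster 18 alone 4 members rose and 7 fell, beside 12% and 13.1% of genes, and in cluster 19 alone 14 fell and 0 rose, beside 9.2% of genes that fell. Unfiltered counts gave 16 called members, beside 17.2% of genes. The 7 member calls became 2 without wildtype untreated replicate 2, 3 without mutant untreated replicate 1 or wildtype DSS replicate 2 and 4 without mutant untreated replicate 2.

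In dendritic cell-like barcodes, which present antigen, 2 members rose and 6 fell of 35 tested, beside 7.04% and 7.65% of genes. Irf8 stood at 465 and 479 CPM in the wildtype and 603 and 522 CPM in the mutant untreated libraries, against 261 and 214 CPM in the wildtype and 287 and 184 CPM in the mutant DSS libraries. Psmb8 counts were 698 and 913 CPM in untreated wildtype, 960 and 949 CPM in untreated mutant, 593 and 514 CPM in DSS wildtype and 561 and 412 CPM in DSS mutant libraries. Iigp1 gave 26.7, 19.4, 18.7 and 13 CPM in the 4 untreated libraries and 72.4, 34.1, 32.6 and 39.7 CPM in the 4 DSS libraries. Treatments did not overlap for any of the 3. Irf8 fell 2.33-fold (log2 fold change -1.22 ± 0.14, edgeR adjusted p = 0.000201), Psmb8 1.81-fold (-0.86 ± 0.13, edgeR adjusted p = 0.00109), and Iigp1 rose 2.16-fold (1.11 ± 0.24, edgeR adjusted p = 0.0073). Mx1 fell (log2 fold change -1.48 ± 0.30), with untreated libraries at 10.2 to 25.1 CPM and DSS libraries at 3.4 to 8.31 CPM. Irgm1 rose, and Ifi35, Psmb9 and Psmb10 fell. DESeq2 called 5 members, beside 7.67% of genes. The 8 edgeR calls became 4 without wildtype untreated replicate 2 and 5 without mutant untreated replicate 1 or mutant DSS replicate 2.

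In B cell-like barcodes 5 of 26 members were called, beside 16.1% of genes. Iigp1 stood at 3.06 and 3.61 CPM in the wildtype and 4.6 and 1.82 CPM in the mutant untreated libraries, against 21.9 and 25.3 CPM in the wildtype and 20 and 4.54 CPM in the mutant DSS libraries. DSS mutant replicate 2 lay within the untreated range, and the gene had 76 UMIs over all 8 libraries. Iigp1 rose 5.73-fold (log2 fold change 2.52 ± 0.46, edgeR adjusted p = 0.000587), Tapbp and Samhd1 rose, and Ifi35 and Psmb8 fell, and the count was 3 without either wildtype replicate 2 library and 2 with DESeq2, beside 6.53% of genes. In plasma cell-like barcodes 6 of 29 members were called, beside 7.66% of genes: Tapbp rose and Ifi35, Psmb8, Gbp2, Psmb10 and Bst2 fell. That count became 0 without mutant untreated replicate 2 or wildtype DSS replicate 2, 1 without wildtype untreated replicate 2 and 2 without mutant untreated replicate 1. In group 3 innate lymphoid cell (ILC3)-like barcodes Psmb8 was the 1 of 29 members that fell (-0.60 ± 0.15, edgeR adjusted p = 0.0481), beside 1.14% of genes, and it was not called without any 1 of 5 libraries (both untreated wildtype libraries, mutant untreated replicate 1 and both replicate 2 DSS libraries) or by DESeq2. Without a low-count filter 2 members were called, beside 1.48% of genes. In smooth muscle or pericyte-like barcodes edgeR called 0 of 35 members, beside 4.05% of genes, with 8 members and 20.6% of genes at an unadjusted p under 0.05 and 0 members called by DESeq2, and the median was -0.24. Without a filter on low counts 4 members were called, beside 5.94% of genes.

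The antiviral effectors were also counted per cell, after thinning each cell to 1000 UMIs and leaving out shallower ones (21 to 137 T cells and 21 to 185 macrophage or monocyte-like barcodes per library). Among T cells 30.8% to 34% had at least 1 of the 13 genes, and 0.269% to 1.15% had 3 or more. In macrophage or monocyte-like barcodes 48.1% to 58.5% had at least 1. The share with 3 or more was 6.88% and 6.39% in wildtype and 3.45% and 5.92% in mutant untreated libraries, against 12.1% and 4.25% in wildtype and 10.9% and 3.33% in mutant DSS libraries. The replicate 1 DSS libraries of both genotypes thus lay above every untreated library and the replicate 2 DSS libraries below most of them. Rsad2 and Ifit1 in these barcodes were also highest in the replicate 1 DSS libraries, while the replicate 2 DSS libraries lay within the untreated range. Rsad2 gave 161, 140, 80 and 140 CPM in the 4 untreated libraries and 315, 115, 284 and 137 CPM in the 4 DSS libraries. Ifit1 counts were 109 and 78.3 CPM in untreated wildtype, 37.2 and 82.7 CPM in untreated mutant, 230 and 92.6 CPM in DSS wildtype and 213 and 81.8 CPM in DSS mutant libraries. Neither gene was called for DSS. Free RNA in droplets adds UMIs to every cell, and no population was free of these genes, so its share was not tested. Without thinning the median share of T cells was 59.5% for at least 1 gene and 6.68% for 3 or more.

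**Figure D5:**
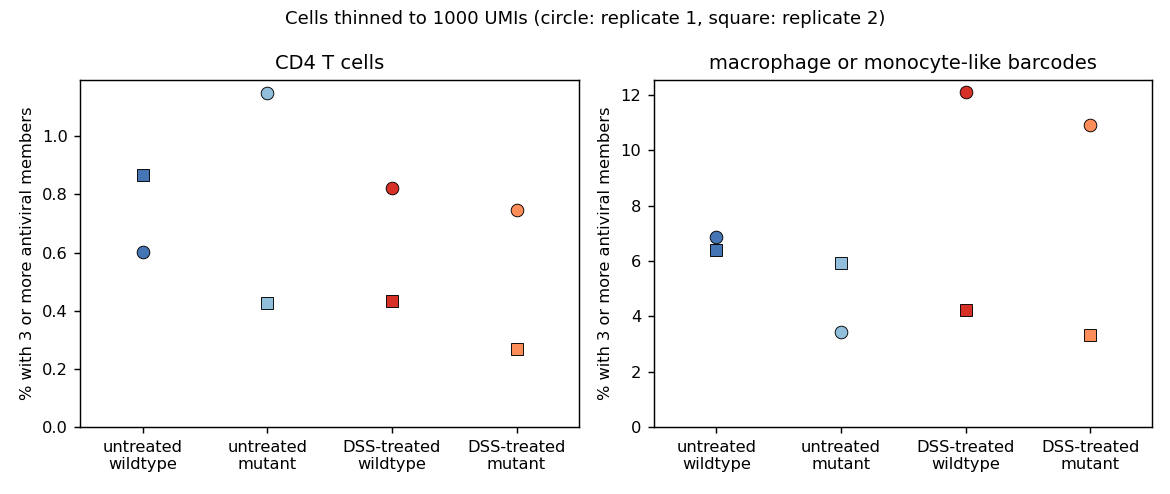
Share of cells (percent, vertical axis) with 3 or more of the 13 antiviral effector genes after thinning to 1000 UMIs, in T cells and in macrophage or monocyte-like barcodes, 1 point per library. In macrophage or monocyte-like barcodes the 2 replicate 1 DSS libraries lie at 12.1% and 10.9%, above the other 6.

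The mutation was tested in T cells in untreated mice, after DSS and averaged over both, and edgeR called 0 members and 0% of genes in each of the 3 comparisons. At an unadjusted p under 0.05 there were 8, 2 and 7 members, beside 5.25%, 1.72% and 2.87% of genes, and DESeq2 called 0 members in each. With no filter on low counts edgeR called 4 members lower in untreated mutants (Gbp3, Igtp, Iigp1, Ifit1), beside 0.759% of genes, and 2 averaged (Gbp3, Ifit1), beside 0.361%. The median log2 fold change of the members was -0.17, -0.15 and -0.12. Gbp3 had the smallest unadjusted p in each, although no adjusted p came under 0.05. It stood at 102 and 109 CPM in wildtype against 69.7 and 77.4 CPM in mutant untreated libraries, and at 122 and 117 CPM against 99.8 and 90.5 CPM after DSS, a difference of -0.43 ± 0.08 on the log2 scale averaged over treatments (edgeR adjusted p = 1). Both mutant groups lay below the wildtype group of their treatment, and 0.333 is the smallest p that an exact permutation test can reach with 2 libraries in each group.

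Igtp (-0.51 ± 0.14), Gbp7 (-0.46 ± 0.14), Ifit1 (-1.26 ± 0.41) and Iigp1 (-0.62 ± 0.21) were lower and Isg15 (0.36 ± 0.14) higher by their estimates in untreated mutant T cells, and none passed. Ifit1 gave 30.2, 14.9, 8.91 and 9.81 CPM in the 4 untreated libraries and 11.3, 8, 10.7 and 4.56 CPM in the 4 DSS libraries. The untreated wildtype replicate 1 library stood far above the rest for Ifit1. All 6 guanylate-binding protein genes had an estimate below 0 averaged over treatments, from -0.43 to -0.23, and all 5 immunity-related GTPase genes from -0.32 to -0.03. Heat-shock genes had a median of 0.80 for mutant against wildtype in untreated T cells with 0 called by edgeR, in the same libraries.

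Outside the pooled T cells, 14 populations were tested for the mutation averaged over treatments. There edgeR called 0 members, beside 0.0125% of 119681 gene tests, and DESeq2 called 0 members. At an unadjusted edgeR p under 0.05 there were between 0 and 10 members per population. Pooled over the 14 populations, 3.55% of all gene tests were under that limit, and the share within each population is not given. Unfiltered counts gave 5 calls, beside 0.203% of gene tests. Tests within each treatment were added after seeing the data. After DSS 0 members were called by edgeR (0.00251% of gene tests) and for the interaction 0 (0.0209%), with 0 by DESeq2 in both, and the interaction called 5 with no filter on low counts, beside 0.253%. In untreated mice 1 was called, Isg15 in Tfh-like cells, beside 0.0485% of gene tests over the 14 populations and 0.196% of genes higher in Tfh-like cells. DESeq2 called 2 there (Isg15 in Tfh-like and Igtp in Th17-like cells), beside 0.0501% of gene tests, and edgeR with no filter on low counts called 16, beside 0.425%.

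Tfh-like cells, which help B cells, had Isg15 at 76.4 and 116 CPM in wildtype and 195 and 259 CPM in mutant untreated libraries. After DSS the values were 115 and 117 CPM in wildtype and 111 and 87.9 CPM in mutant libraries. The untreated mutant libraries stood above all other 6. The gene was 2.33-fold higher in untreated mutants (log2 fold change 1.22 ± 0.20, edgeR adjusted p = 0.00367), and after DSS the difference did not pass (-0.24 ± 0.21, edgeR adjusted p = 0.996). It fell after DSS in mutant mice (-1.26 ± 0.20, edgeR adjusted p = 0.00126; 1.34% of genes fell), gave 0.20 ± 0.22 in wildtype mice, and the interaction was -1.46 ± 0.29, edgeR adjusted p = 0.0583, above the threshold. Without wildtype untreated replicate 1 or mutant untreated replicate 2 the untreated difference was 0.99 or 0.97 and was no longer called. Heat-shock genes in Tfh-like cells summed to 26900 and 24900 CPM in the same 2 untreated mutant libraries and to 10700 to 15100 CPM in the other 6, and their part in the Isg15 difference was not tested.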

How the data were processed

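Per the submitters' processing notes, Cell Ranger 3.1.0, Seurat 4.0.1 and the genome build mm10 were used; which step used each is not given in the sources used here. The authors deposited whole-number UMI counts per gene and barcode for 8 libraries, a list of 27420 kept cells, each with a Cd4 UMI, and the symbol order of the 31053 gene rows. In 7 tables genes are numbered, so symbols rest on that order, which matched 98.5% of the identifiers in the table that has them.

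Barcodes with at least 400 genes and at most 20% mitochondrial UMIs were clustered with scanpy 1.11.5 (2000 variable genes, from which members and other interferon genes were removed, 30 components, 15 neighbours, Leiden resolution 1). T cells came from kept cells (20 clusters) and non-T populations from all 96721 barcodes within the limits (25 clusters). A name needed a marker score of 1, a lead of 0.3 over the next name and 3 detected markers, limits chosen with the clusters in view. Populations with under 50 barcodes in a library were not tested. Doublets were not removed: scrublet marked 7 barcodes, under 0.5%, and so has not worked here, and the alternative without predicted doublets was not run.

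UMI counts were summed per library and population and fitted with edgeR 4.0.16 (quasi-likelihood test, TMM, filterByExpr) over all 8 libraries with 1 mean per group. P-values were adjusted over all genes tested (Benjamini-Hochberg, threshold 0.05, two-sided). The value after ± is a standard error (SE) of the log2 fold change unless SD is named. It was derived as the absolute log2 fold change divided by the square root of the quasi-likelihood F statistic. Depth per library was 6170271 to 14918156 UMIs in T cells, and values under 10 CPM rest on few UMIs in small populations. DESeq2 1.42.0, no low-count filter, other size factors, another resolution, other cell limits and each library left out were tried. The members and all lists were chosen with earlier results of these data known. Values per library are given for members called in T cells, for the 2 most abundant members of each role, for up to 8 called members of other populations and for the 3 with the highest ratio to T cells; Gbp3, Igtp, Rsad2, Ifit1 and Tap1 are also named in places outside this rule, after their values were seen. The titles give no shared replicate numbers.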

Additional observations from a re-analysis of the deposited data

Results flagged for a closer look

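The response of the members to DSS differed between populations in the tests of the difference itself. These tests were chosen after seeing the data, and 1 term per library paired the populations of a mouse. Between fibroblast-like barcodes and T cells 17 members differed, between endothelial-like barcodes and T cells 11, and between fibroblast-like and macrophage or monocyte-like barcodes 18, of which Psmb8 was the 1 with the higher effect in fibroblast-like barcodes. Of all genes 2.53%, 1.53% and 4.11% had a lower effect in the first population of each pair. Within T cells the groups of 2 libraries were too small for a test of outlying libraries.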

How the results depend on the processing

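Counts of called members changed when single libraries were left out. The share of all genes called in each such fit is not given here or in the results, so these changes cannot be set against it. Leaving out 1 library at a time gave 1 to 16 called members for DSS in T cells (13 with all libraries), 0 to 1 for DSS in wildtype (0) and 0 to 7 for DSS in mutant T cells (5), and 0 in the 4 T cell tests of the mutation and interaction. Over the 14 other populations it gave 34 to 141 for DSS (95), and 0 to 1 for the mutation averaged over treatments (0), in untreated mice (1), after DSS (0) and for the interaction (0). The ranges for DSS were 0 to 3 in Tfh-like (3), 1 to 8 in Th1-like (7), 0 to 8 in Th17-like (3), 2 to 15 in Treg-like (11), 0 to 3 in naive or central memory T-like (2) and 3 to 11 in proliferating-like T cells (7). In non-T barcodes they were 3 to 5 in B cell-like (5), 0 to 2 in ILC3-like (1), 4 to 10 in dendritic cell-like (8), 2 to 26 in endothelial-like (11), 8 to 35 in fibroblast-like (24), 2 to 10 in macrophage or monocyte-like (7), 0 to 6 in plasma cell-like (6) and 0 to 1 in smooth muscle or pericyte-like barcodes (0). In fibroblast-like barcodes they were 0 to 14 for wildtype (3) and 0 to 28 for mutant mice (6). For the differences of DSS effects they were 10 to 16 for fibroblast-like minus T cells (17), 7 to 17 for endothelial-like minus T cells (11) and 12 to 19 for fibroblast-like minus macrophage or monocyte-like barcodes (18). The cause was not tested.

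With no filter on low counts the calls became 5 for DSS in wildtype and 13 for DSS in mutant T cells, 4 for the mutation in untreated and 2 averaged in T cells, and 151 for DSS, 5 for the mutation averaged, 16 in untreated mice and 5 for the interaction over other populations. By population they became 7 in Th17-like, 11 in proliferating-like, 2 in ILC3-like, 29 in endothelial-like, 16 in macrophage or monocyte-like and 4 in smooth muscle or pericyte-like sets, 20 and 24 in fibroblast-like barcodes of wildtype and mutant mice, and 20 for endothelial-like minus T cells. With DESeq2 they became 3 for DSS in wildtype and 9 in mutant T cells, 2 for the mutation in untreated mice over other populations, 1 in Tfh-like, 2 in Th1-like, 5 in Treg-like, 0 in naive or central memory T-like, 4 in proliferating-like, 2 in B cell-like, 0 in ILC3-like and 5 in dendritic cell-like sets, and 9 and 10 in fibroblast-like barcodes of wildtype and mutant mice. DSS in mutant T cells gave 0 with only the 4 libraries compared, 11 with T cell barcodes on the authors' list or not and, an alternative chosen after seeing the data, 8 without T cells holding UMIs of 3 or more non-T genes. For the 151 DSS calls with no filter on low counts the share of all gene tests called is not given, so they cannot be set against it.

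Single clusters, also chosen after seeing the data, gave 18 calls in endothelial-like cluster 13, 11 and 14 in macrophage or monocyte-like clusters 18 and 19, and 8 and 10 in fibroblast-like cluster 12 of wildtype and mutant mice. In cluster 12 Gbp5 turned from a fall to 0.07 on the log2 scale, the 1 reversal among 846 values of called members under alternatives, of which 538 stayed called and 307 did not.

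The titles share no replicate numbers, so a replicate block could only pair wildtype and mutant libraries with neighbouring animal numbers, which the labels do not call a pairing. In T cells this pairing called 0 members in each test of the mutation. In the other populations the block called 1 member for the mutation averaged, 5 in untreated mice (Isg15 in Tfh-like, Igtp in Th17-like, Ifit1 in proliferating-like, Irf8 and Iigp1 in ILC3-like sets) and 2 for the interaction. The share of all gene tests called with the block is not given, so these counts cannot be set against it. The share of T cells with an antiviral transcript was 59.5% without thinning and 52.7% at 2000 UMIs, and with 3 or more genes 6.68% and 2.88%. Mx1, Oas1a and Usp18, with 111, 87 and 72 UMIs over all T cell libraries, did not pass at this depth. The fit without predicted doublets was not run.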

Other observations

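Some populations had under 50 barcodes in at least 1 library and were not tested. Enteric glia-like barcodes held a summed member level of 9520 and 7610 CPM in wildtype and 7020 and 8910 CPM in mutant untreated libraries, and of 5450 and 6860 CPM in wildtype and 9610 and 4720 CPM in mutant DSS libraries. All 8 values lay above those of T cells, and the treatments overlapped. Neutrophil-like barcodes held 8050, 6020, 5480 and 5580 CPM in untreated libraries and 8200, 1540, 3280 and 1050 CPM in DSS libraries, with DSS wildtype replicate 1 apart from the other 3 DSS libraries. Squamous epithelium-like barcodes, seen mostly in DSS libraries and in untreated mutant replicate 1, held 226 to 2350 CPM. A T cell cluster without a subset name, led by haemoglobin and immunoglobulin transcripts, held 1590 to 2340 CPM.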
